A study of Mus musculus with 32 samples.

Results

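The genes described here are 10 genes of sarcoplasmic reticulum calcium cycling, chosen by name: Atp2a2, Pln, Sln, Ryr2, Casq2, Casq1, Slc8a1, Calr, Camk2d and Fkbp1b. They are 10 of 13675 genes that the arrays measure with a probe set of a single gene name. All 16 probe sets that carry one of these names were taken, 11 on the first and 5 on the second of the 2 Affymetrix array types, which hold different probe sets. Atp2a2 and Camk2d are on both types, Pln is on the second only, and the other 7 genes are on the first only.

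Total RNA came from the cardiac ventricle of mice. The failure group (3 arrays of each type) and the hypertrophy group (8 arrays of each type) carried a cardiac specific AT1 transgene. AT1 is left unexplained in the labels (in heart studies the name commonly means a receptor of angiotensin II), and no promoter for the transgene is named. Wild type mice with a normal heart were the controls (5 arrays of each type). Age, sex, strain and any treatment are not given. Since no label ties an array to an animal of its own, the p-values reflect differences among these arrays and may include technical variation.

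In a heart muscle cell each beat begins when calcium entering from outside opens the ryanodine receptor RYR2, the release channel of the sarcoplasmic reticulum. The released calcium drives contraction. It is then pumped back into the reticulum by SERCA2a, the product of Atp2a2, or carried out of the cell by the sodium-calcium exchanger NCX1, the product of Slc8a1. Phospholamban (Pln) and sarcolipin (Sln) are small membrane proteins that restrain the pump, calsequestrin (Casq2, Casq1) stores calcium next to the channel, and the kinase CaMKII (Camk2d) tunes both pump and channel. Lower pump levels and higher exchanger levels have often been described in failing hearts.

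Ventricular tissue was checked with markers. All 11 listed heart muscle genes were measured on the first type, and their summed signal was 61406 to 61906 in failure, 52522 to 68027 in hypertrophy and 56638 to 65020 in wild type. The summed signal of 9 atrial markers was 5885 to 8179 in failure, 2925 to 7643 in hypertrophy and 3273 to 6022 in wild type. That of 9 fibroblast markers was 4363 to 8315, 3176 to 6381 and 4352 to 5037 in the same groups. In such sums of linear signals the brightest genes weigh most. The atrial list includes Nppa, so its sum does not by itself measure atrial tissue. Some arrays stood apart. Hypertrophy replicate 1 had the lowest median signal of both types (91.8 and 69.3). In the Gapdh control, the signal of the 5′ probe set over the 3′ one was 0.468 and 0.0487 in hypertrophy replicates 6 and 7 of the first type, and 0.379 and 0.0414 in those of the second, against wild type ranges of 0.806 to 0.955 and 0.772 to 0.913. A low ratio is a sign of degraded RNA or incomplete labelling. The same ratio of the Actb control moved with failure: on the first type it was 0.765 to 1.10 in failure, 0.357 to 0.992 in hypertrophy and 0.545 to 0.752 in wild type, and on the second 0.852 to 1.22, 0.494 to 1.37 and 0.654 to 1.002. In this control hypertrophy replicate 7 was below the wild type range on both types (0.357 and 0.494). Replicate 6 was within it (0.563 and 0.667), so its low ratio was seen in the Gapdh control and not in this one. With the Actb ratio as a covariate no member was called, and 11 of the 36 member differences turned sign. In whole tissue, fewer cells of a type and less RNA per cell cannot be told apart.

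Signals are the deposited linear intensities. Testing was limited to probe sets that were as bright as the median probe set, or brighter, in 3 or more of the 16 arrays. Of the 16 probe sets, 12 passed, for 9 of the 10 genes. The 4 that did not were the Sln probe set, 2 of the 3 for Slc8a1 and 1 of the 3 for Camk2d. Differences are on the log2 scale with values below the floor (39.5 on the first type, 27.5 on the second) raised to it. A change is called at an adjusted p below 0.05, taken over all probe sets of the type in limma. Probe sets bind with different strength, so levels are compared between groups and never between genes.

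No member was called in any comparison. In failure against wild type 0 of 12 probe sets were called, where 0.143% of all probe sets on the first type (0.129% higher, 0.0143% lower) and 0.357% on the second (0.286% higher, 0.0714% lower) were. In failure against hypertrophy 0 of 12 were called, against 0% and 0.0286% of all. In hypertrophy against wild type 0 of 12 were called, against 0% and 0.171% of all. At an unadjusted limma p below 0.05 the members numbered 0, 0 and 2 of 12 in the same order of comparisons. The share of all probe sets below it was 10.7% and 12.2%, then 10.1% and 8.67%, then 4.47% and 9.77% (first and second type). The median log2 difference of the members was 0.06 in failure against wild type, beside 0.05 over all probe sets tested. It was 0.09 in failure against hypertrophy, beside 0.04, and -0.02 in hypertrophy against wild type, beside 0.01. In no probe set and no comparison did the arrays of one group lie wholly on one side of the other, which they did for 13.3% and 13.8% of all probe sets when failure was set against wild type, 2.54% and 1.78% for failure against hypertrophy and 0.172% and 0.7% in hypertrophy against wild type. Failure and hypertrophy are set against the same wild type arrays, so these comparisons are not independent. A miss of the threshold does not show equal levels, so the intervals are given with each gene.

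**Figure D1:**
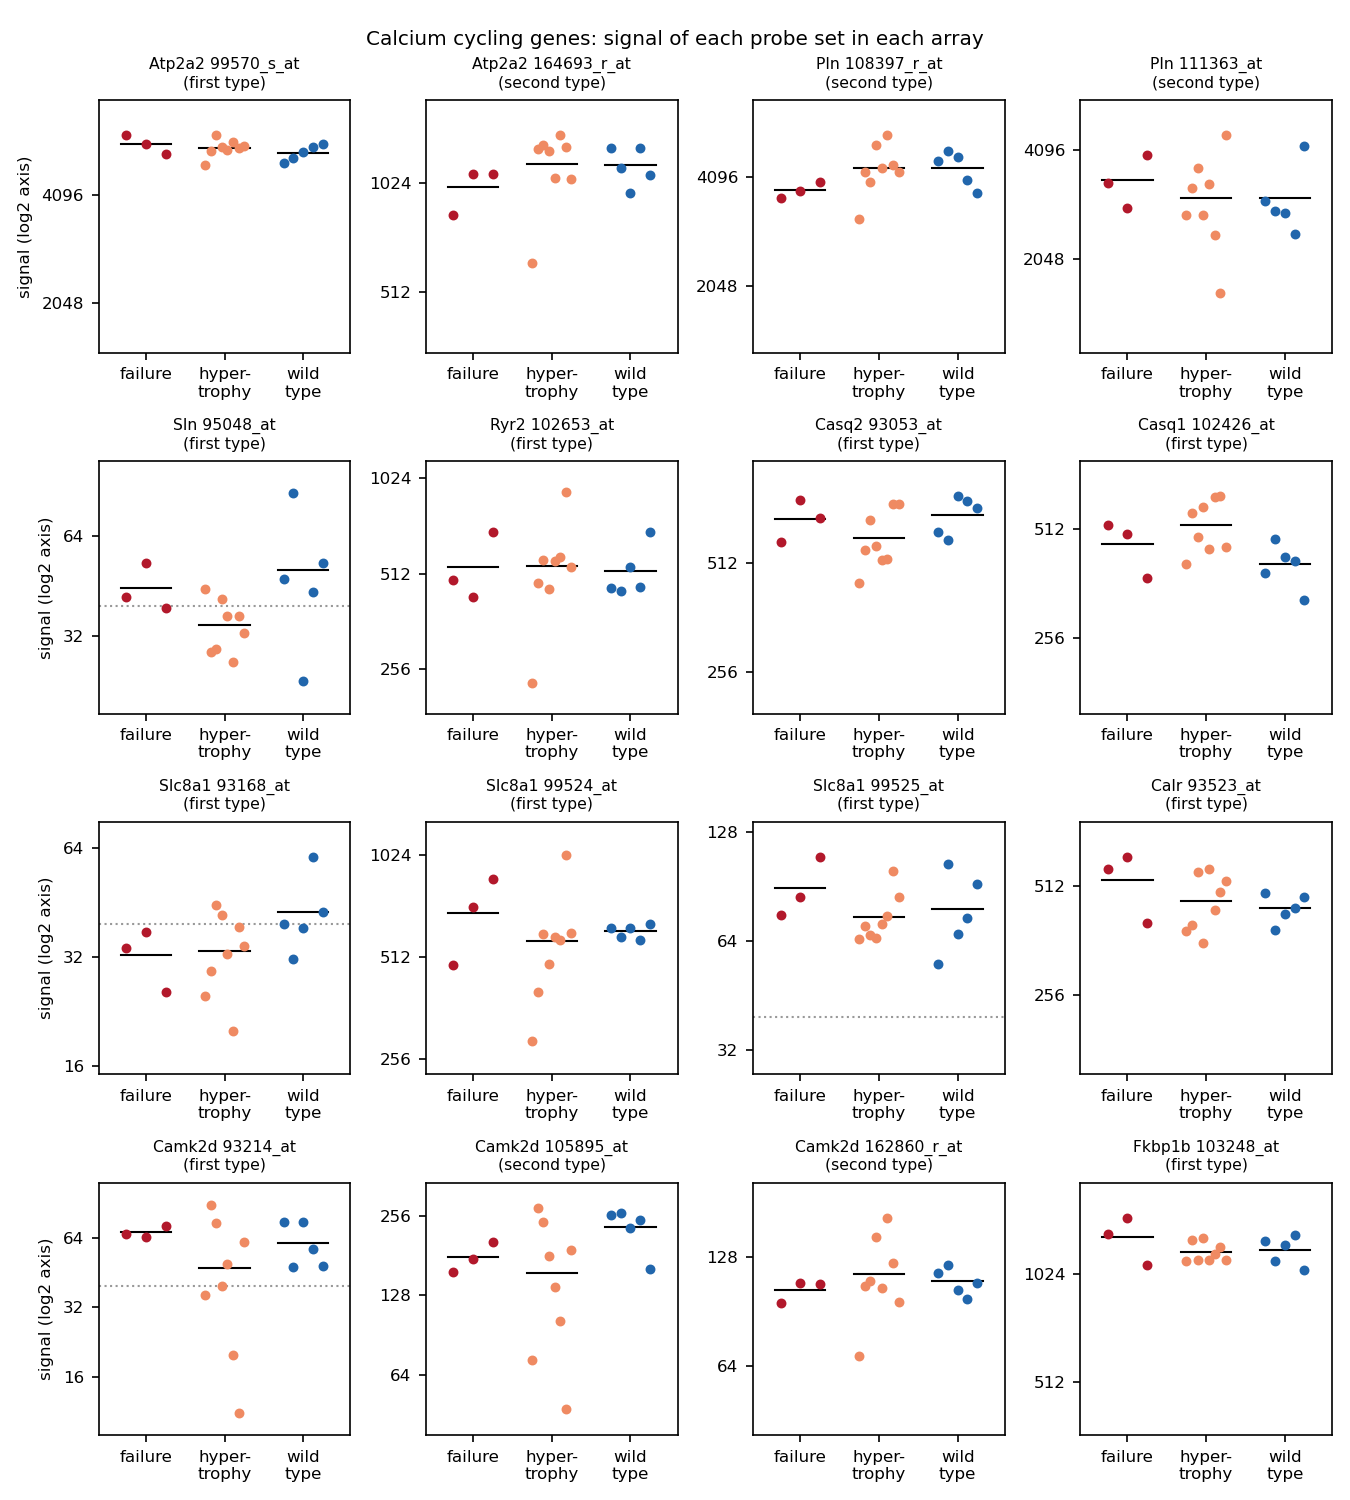
Signal of each of the 16 member probe sets (log2 axis) in failure, hypertrophy and wild type arrays, with each point an array, each horizontal bar a group mean and the dotted line the floor where it falls in view. The groups overlap in every panel, and the hypertrophy arrays spread widely for Ryr2, Slc8a1 99524_at and Camk2d 105895_at.

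**Figure D2:**
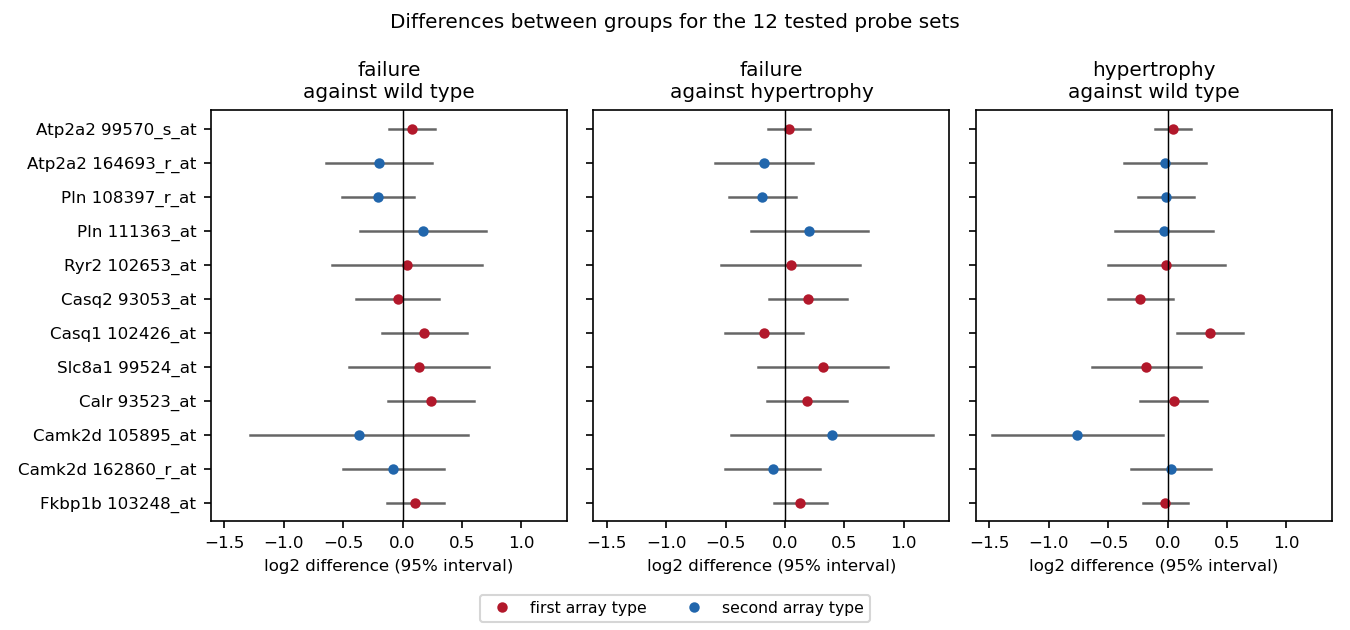
Log2 difference (points) with its 95% interval (lines) for the 12 tested probe sets in each comparison, coloured by array type. The interval includes 0 everywhere except for Casq1 and Camk2d 105895_at in hypertrophy against wild type, which did not pass after adjustment.

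The probe sets of the calcium pump gave failure to wild type ratios on either side of 1, and neither was called. Probe set 99570_s_at of Atp2a2, on the first type, read 5979.5, 5658 and 5296 in failure. It ranged from 4954 to 5976 with a median of 5519.7 in hypertrophy, and read 4996, 5171, 5383, 5555 and 5642 in wild type. Failure replicates 1 and 2 lay above every wild type array, replicate 2 by a narrow margin, and replicate 1 was also just above the highest hypertrophy array. The failure signal was 1.05 times the wild type one with a 95% interval of 0.923 to 1.21 (log2 difference 0.08 ± 0.09, SE, adjusted p = 0.83). The ratio was 1.02 for failure against hypertrophy (0.904 to 1.16, adjusted p = 0.937) and 1.03 for hypertrophy against wild type (0.929 to 1.14, adjusted p = 0.984). These intervals are the narrowest among the members. The sign for failure against wild type is not settled, as it was -0.01 with quantile scaling and -0.02 with median scaling. The hypertrophy against wild type difference was 0.15 ± 0.07 (log2, SE) with quantile scaling (adjusted p = 0.903), against 0.04 ± 0.07 as deposited.

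The other Atp2a2 probe set, 164693_r_at on the second type, read 832, 1085 and 1085 in failure. In hypertrophy it ranged from 616 to 1387 with a median of 1259.7, and in wild type it read 1281, 1129, 959, 1283 and 1078. The value of 616 belongs to hypertrophy replicate 1, and the remaining 7 hypertrophy arrays lie between 1049 and 1387. The failure to wild type ratio was 0.872 (0.641 to 1.19, adjusted p = 0.755), in the other direction from the first probe set. The log2 signals of both were correlated over arrays of the same number, which the labels do not tie to 1 sample. Pearson r was 0.285 (permutation p = 0.293, adjusted p = 0.352). It was -0.05 without the 2 arrays farthest from the median and 0.833 within hypertrophy (exact permutation p = 0.0438). Probe sets whose names end in _r_at were designed with some of the selection rules dropped, and those in _s_at can bind more than 1 related transcript.

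Phospholamban restrains the pump until it is phosphorylated. Probe set 108397_r_at of Pln read 3586, 3747 and 3969 in failure. Hypertrophy ranged from 3138 to 5356 with a median of 4299.6, and wild type read 4541, 4854, 4656, 4040.2 and 3714. All 3 failure arrays were below 4 of the 5 wild type arrays, and wild type replicate 5 lay within their range. The ratio of failure to wild type was 0.867 (0.701 to 1.07, log2 difference -0.21 ± 0.15, SE, adjusted p = 0.602), and that of failure to hypertrophy 0.876 (0.719 to 1.07, adjusted p = 0.730). Between hypertrophy and wild type the ratio was 0.991 (0.839 to 1.17, adjusted p = 0.979).

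The second Pln probe set, 111363_at, gave the opposite sign in failure. It read 3320.2, 2845 and 3986 in failure, 1648 to 4513 with a median of 2969 in hypertrophy, and 2977, 2779.8, 2745, 2412 and 4218 in wild type. The failure to wild type ratio was 1.13 (0.781 to 1.63, adjusted p = 0.834). Phospholamban's probe sets differ in sign and give no direction. Over the 16 arrays their log2 signals had a Pearson r of -0.318 (permutation p = 0.228, adjusted p = 0.342) and a Spearman rho of -0.447 (permutation p = 0.0825, adjusted p = 0.124), and r was -0.406 without the 2 arrays farthest from the median. The 2 lowest 111363_at signals, 1648 and 2389.9, came from hypertrophy replicates 7 and 6, the arrays of low Gapdh ratio. In 108397_r_at replicate 6 was the highest of all 16 arrays at 5356. Without these arrays the hypertrophy against wild type difference of 111363_at was 0.15 (log2), against -0.03 with them.

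At the RNA level, Pln was set against the pump as its log2 signal minus that of Atp2a2 within each second-type array. The zero of this quantity has no meaning, and it does not measure the balance of the proteins. With 108397_r_at and 164693_r_at the 3 failure arrays averaged 1.92 ± 0.17 (SD), the 8 hypertrophy arrays 1.94 ± 0.23 and the 5 wild type arrays 1.93 ± 0.25. The group means lie closer together than the spread within any group. With 111363_at the averages were 1.75 ± 0.32 (SD) over failure arrays, 1.37 ± 0.62 over hypertrophy arrays and 1.38 ± 0.39 over wild type arrays. Its lowest value, 0.36, was that of hypertrophy replicate 7. Hypertrophy replicate 1 was the highest of its group with 108397_r_at (2.35) and with 111363_at (2.14). It is the array with the low 164693_r_at signal of 616.

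Sarcolipin is the pump's other small inhibitor and in the mouse heart is mainly an atrial gene. Its probe set, 95048_at, did not reach the array median in any array and was not tested. It read 41.9, 53.2 and 38.8 in failure, 26.7 to 44.2 with a median of 34.8 in hypertrophy, and 47.4, 85.9, 23.4, 43.4 and 52.9 in wild type. The signal was below the floor in 1 of 3 failure, 6 of 8 hypertrophy and 1 of 5 wild type arrays. The wild type arrays alone cover the whole range of the others. The summed signal of the 9 atrial markers, Nppa among them, had medians of 6256 in failure, 4461 in hypertrophy and 4244 in wild type. This sum does not by itself measure atrial tissue, and its part in the Sln values was not tested.

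The ryanodine receptor gene Ryr2 was measured by 102653_at. It read 487, 432 and 694 in failure, 232 to 926 with a median of 548 in hypertrophy, and 459.7, 452, 537, 464 and 692 in wild type. The hypertrophy arrays alone span a 3.99-fold range, against 1.61-fold in failure and 1.53-fold in wild type, and the group means of 538, 541 and 521 lie far inside it. The failure to wild type ratio was 1.03 (0.663 to 1.59, adjusted p = 0.986), that of failure to hypertrophy 1.03 (0.689 to 1.55, adjusted p = 0.974) and that of hypertrophy to wild type 0.993 (0.706 to 1.40, adjusted p = 0.9999). None of these has a direction. Without failure replicate 3 the failure against wild type difference was -0.16 (log2) and without replicate 2 it was 0.18.

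FKBP12.6, the product of Fkbp1b, binds the release channel and steadies its closed state. Probe set 103248_at read 1321, 1463 and 1081 in failure, 1107 to 1284 with a median of 1140.0 in hypertrophy, and 1262, 1107, 1232, 1308 and 1046 in wild type. Failure replicates 1 and 2 were above all 5 wild type arrays and all 8 hypertrophy arrays, and replicate 3 was below every hypertrophy array. The ratios were 1.08 for failure against wild type (0.912 to 1.27, adjusted p = 0.800), 1.09 for failure against hypertrophy (0.935 to 1.27, adjusted p = 0.737) and 0.987 for hypertrophy against wild type (0.867 to 1.12, adjusted p = 0.992). The log2 difference of failure was 0.11 from wild type and 0.13 from hypertrophy. Without failure replicate 2 these were 0.0099 and 0.03, and without replicate 3 they were 0.23 and 0.25. Its hypertrophy arrays were close together, with a SD of 0.09 (log2), beside a median SD of 0.26 over all probe sets tested on this type. That of Atp2a2 99570_s_at was 0.08.

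Cardiac calsequestrin, Casq2, is the main calcium store of the reticulum in heart muscle. Its probe set 93053_at read 587, 765 and 684 in failure, 449.6 to 748 with a median of 564 in hypertrophy, and 625, 591, 785, 759 and 729 in wild type. The failure arrays lay among the wild type ones apart from replicate 1, which was just below them. The ratio was 0.973 for failure against wild type (0.763 to 1.24, adjusted p = 0.970), 1.14 for failure against hypertrophy (0.912 to 1.43, adjusted p = 0.721) and 0.851 for hypertrophy against wild type (0.704 to 1.03, adjusted p = 0.960). In hypertrophy 5 of 8 arrays were below the whole wild type range.

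Casq1 encodes the calsequestrin of fast skeletal muscle, which is a minor form in the heart. Probe set 102426_at read 525, 496 and 373 in failure, 408 to 631 with a median of 525 in hypertrophy, and 385, 481, 429, 418 and 326 in wild type. In hypertrophy 5 of 8 arrays were above the highest wild type array and none was below the median wild type array of 418 except replicate 1. The hypertrophy to wild type ratio was 1.28 (1.06 to 1.56). This difference had an unadjusted limma p of 0.0140 but an adjusted p of 0.960, so it was not called. It was 0.27 (log2) without hypertrophy replicates 6 and 7, which had the 2 highest signals (625 and 631), against 0.36 with them. The failure ratios were 1.14 against wild type (0.888 to 1.45, adjusted p = 0.754) and 0.885 against hypertrophy (0.704 to 1.11, adjusted p = 0.762). The summed signal of 12 skeletal muscle markers on this type was 2626 to 3496 in failure, 2623 to 3312 in hypertrophy and 2757 to 3073 in wild type. Among them Ryr1, the skeletal release channel, was below the floor in every array. The part of other skeletal muscle genes in the Casq1 values was not tested.

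Calreticulin (Calr) is a calcium-binding chaperone of the endoplasmic reticulum that is abundant in the fetal heart. Its probe set 93523_at read 573, 618 and 407 in failure, 357 to 571 with a median of 467 in hypertrophy, and 490.5, 388, 429, 447 and 478 in wild type. Failure replicates 1 and 2 were above all hypertrophy and wild type arrays, and replicate 3 was within both ranges. The ratio was 1.18 for failure against wild type (0.916 to 1.51, adjusted p = 0.679), 1.14 for failure against hypertrophy (0.902 to 1.44, adjusted p = 0.743) and 1.03 for hypertrophy against wild type (0.851 to 1.26, adjusted p = 0.986). The log2 difference of failure from wild type was 0.24 over all arrays, 0.42 without failure replicate 3 and 0.12 without replicate 2. With array weights it was 0.35 (adjusted p = 0.0758), the smallest adjusted p of any member under any alternative run. Failure replicate 3 was the lowest of its group in 4 of the 12 tested member probe sets and the highest in 6.

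The exchanger gene Slc8a1 had 3 probe sets, and 99524_at was tested. It read 484, 717 and 866 in failure, 289 to 1024 with a median of 579 in hypertrophy, and 623, 586, 621, 576 and 641 in wild type. The wild type arrays were within a 1.11-fold range, whereas failure spanned 1.79-fold and hypertrophy 3.54-fold. Failure replicates 2 and 3 were above every wild type array and replicate 1 was below every one. The failure to wild type ratio was 1.10 (0.731 to 1.66, log2 difference 0.14 ± 0.28, SE, adjusted p = 0.912). It was 1.25 for failure against hypertrophy (0.853 to 1.82, adjusted p = 0.731) and 0.884 for hypertrophy against wild type (0.642 to 1.22, adjusted p = 0.976). Without failure replicate 3 the failure against wild type difference was -0.05 (log2), and without replicate 1 it was 0.37.

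The other Slc8a1 probe sets were dim. Probe set 99525_at read 75.4, 84.6 and 109.6 in failure, 64.7 to 99.9 with a median of 71.0 in hypertrophy, and 55.2, 105, 67.0, 74.1 and 91.9 in wild type, above the floor in all arrays. The log2 signals of 99525_at and 99524_at had a Pearson r of 0.578 over 16 arrays (permutation p = 0.015, adjusted p = 0.0301). Spearman's rho was 0.482 (permutation p = 0.0585, adjusted p = 0.117). Pearson r was 0.481 without hypertrophy replicates 1 and 7, and 0.796 within hypertrophy (exact permutation p = 0.0186). Probe set 93168_at was below the floor in 12 of 16 arrays and ranged from 19.97 to 60.6. Within the array, the log2 signal of Slc8a1 99524_at minus that of Atp2a2 99570_s_at averaged -3.07 ± 0.51 (SD) over the 3 failure arrays, -3.36 ± 0.48 over the 8 hypertrophy arrays and -3.13 ± 0.09 over the 5 wild type arrays. The group means differ by less than the SD of failure or of hypertrophy.

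Ryr2 and Slc8a1 had their lowest and their highest signals in the same arrays. Hypertrophy replicate 1 was lowest of all 16 in both (232 and 289) and hypertrophy replicate 7 highest in both (926 and 1024). The Pearson r of their log2 signals over 16 arrays was 0.841 (permutation p = 0.00042, adjusted p = 0.00222 over the 6 pairs of probe sets computed), and within the 8 hypertrophy arrays 0.957 (exact permutation p = 0.00233). Spearman's rho was 0.494 (permutation p = 0.0535, adjusted p = 0.117). Without these 2 arrays r was 0.464, so the relation over all arrays rests on them. Both also enter the r within hypertrophy, which was not computed without them. One has the lowest median signal of its type and the other the lowest Gapdh ratio. This pair was chosen after its values were seen, and both genes are read from the same arrays.

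**Figure D3:**
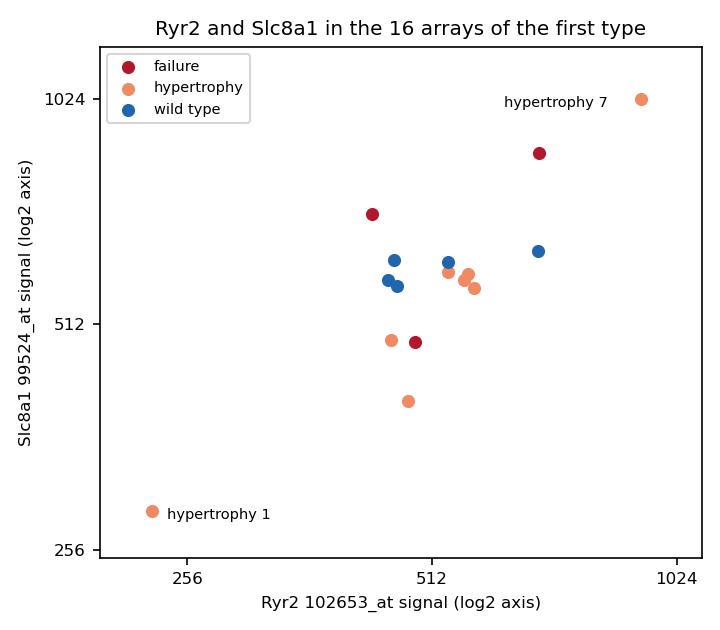
Signal of Slc8a1 99524_at against that of Ryr2 102653_at, both on log2 axes, in the 16 arrays of the first type, coloured by group. Hypertrophy replicates 1 and 7 mark the lower and upper ends of both axes, and the wild type arrays differ in Ryr2 but hardly in Slc8a1.

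The promoters of these genes are shown because theirs was the only pair of different genes among the 6 pairs computed. Each of the others set 2 probe sets of 1 gene together. The relation over all arrays rests on 2 hypertrophy arrays. The promoters are given as RefSeq has them on GRCm38.p6, from 250 bases before to 50 after the gene's start. They are read 5′ to 3′ on the gene's strand. Capitals mark matches on either strand to 4 short motifs: the M-CAT core, whose letters are CATTCC, the GC box, spelled GGGCGG, the TATA box, for which TATAAA was searched, and a GATA site, for which AGATAA was searched. Ryr2 lies at chr13:12106896-12107195 and Slc8a1 at chr17:81738338-81738637, both on the minus strand.
Ryr2: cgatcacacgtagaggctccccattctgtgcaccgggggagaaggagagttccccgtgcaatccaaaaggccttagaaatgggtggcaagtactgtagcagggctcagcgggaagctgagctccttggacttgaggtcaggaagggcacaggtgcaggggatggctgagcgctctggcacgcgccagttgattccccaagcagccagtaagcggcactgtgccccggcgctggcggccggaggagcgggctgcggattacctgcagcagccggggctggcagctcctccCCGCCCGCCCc
Slc8a1: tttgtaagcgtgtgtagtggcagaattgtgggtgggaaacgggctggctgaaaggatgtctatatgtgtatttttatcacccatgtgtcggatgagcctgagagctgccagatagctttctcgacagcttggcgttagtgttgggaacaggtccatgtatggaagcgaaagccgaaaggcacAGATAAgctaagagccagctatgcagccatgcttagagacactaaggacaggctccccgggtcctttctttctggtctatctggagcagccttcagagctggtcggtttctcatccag
The Ryr2 window holds 2 overlapping GC boxes, read as CCGCCC, and the Slc8a1 window holds 1 AGATAA. No motif of the 4 is in both windows, which says only that these letters are not there. Over all 32851 promoters of this length, the GC box was in 35.7%, the M-CAT core in 14.7%, the TATA box in 13.6% and the GATA site in 11.2%, on either strand. Of the 8 members in the table, the GC box was in 5, the TATA box and the GATA site in 2 each, and the M-CAT core in 0. The table holds no entry for Atp2a2 and Sln. The 4 motifs were chosen with the array values known, and a match is not evidence of a bound site.

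Camk2d encodes the delta form of CaMKII, the main form of this kinase in the heart, which phosphorylates the release channel and phospholamban. Its probe set 105895_at, on the second type, had the largest difference of any member. It read 157, 175 and 203 in failure, 47.3 to 274 with a median of 159 in hypertrophy, and 258, 263, 231, 247 and 161 in wild type. In hypertrophy 6 of 8 arrays were below 4 of the 5 wild type arrays, and wild type replicate 5 lay within the failure range. The hypertrophy to wild type ratio was 0.591 (0.359 to 0.971), with an unadjusted limma p of 0.0393 and an adjusted p of 0.485, so it was not called. The failure ratios were 0.777 against wild type (0.411 to 1.47, adjusted p = 0.786) and 1.32 against hypertrophy (0.729 to 2.37, adjusted p = 0.819).

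Within hypertrophy, 105895_at was lowest in replicate 7 (47.3), then replicate 1 (73.0) and replicate 6 (102). Replicates 7 and 6 are the arrays of low Gapdh ratio, while replicate 1 had the highest Gapdh ratio of its type (1.18). Without replicates 6 and 7 the log2 difference from wild type was -0.44 (adjusted p = 0.605), against -0.76 with them, and the difference of failure from hypertrophy was 0.08 (adjusted p = 0.98), against 0.40 with them. Probe set 93214_at, on the first type, read 66.4, 64.3 and 71.6 in failure, 11.2 to 88.7 with a median of 44.3 in hypertrophy, and 74.6, 48.0, 75.2, 57.0 and 48.5 in wild type. It did not reach the array median anywhere and was not tested. There too replicates 7, 6 and 1 were the lowest hypertrophy arrays, at 11.2, 20.01 and 36.3, all below the floor. If arrays of the same number on both types came from the same sample, which the labels do not say, the log2 signals of these probe sets had a Pearson r of 0.861 (permutation p = 0.00074, adjusted p = 0.00222) and a Spearman rho of 0.679 (permutation p = 0.00464, adjusted p = 0.0278) over 16 pairs of arrays. Without hypertrophy replicates 6 and 7 r was 0.672. The floor was not applied in these correlations. They therefore rest in part on differences among 93214_at signals below it, and were not computed with the floor.

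The third Camk2d probe set did not follow the others. Probe set 162860_r_at read 95.3, 108 and 108 in failure, 68.3 to 165 with a median of 108 in hypertrophy, and 116, 121, 104, 98.3 and 109 in wild type. Replicate 6 was its highest hypertrophy array (165) and replicate 1 its lowest (68.3). The ratios were 0.949 for failure against wild type (0.705 to 1.28, adjusted p = 0.916), 0.930 for failure against hypertrophy (0.706 to 1.22, adjusted p = 0.900) and 1.02 for hypertrophy against wild type (0.809 to 1.29, adjusted p = 0.970). Its Pearson r with 105895_at was 0.0398 (permutation p = 0.865, adjusted p = 0.865). The probe sets of Camk2d therefore disagree among themselves.

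**Figure D4:**
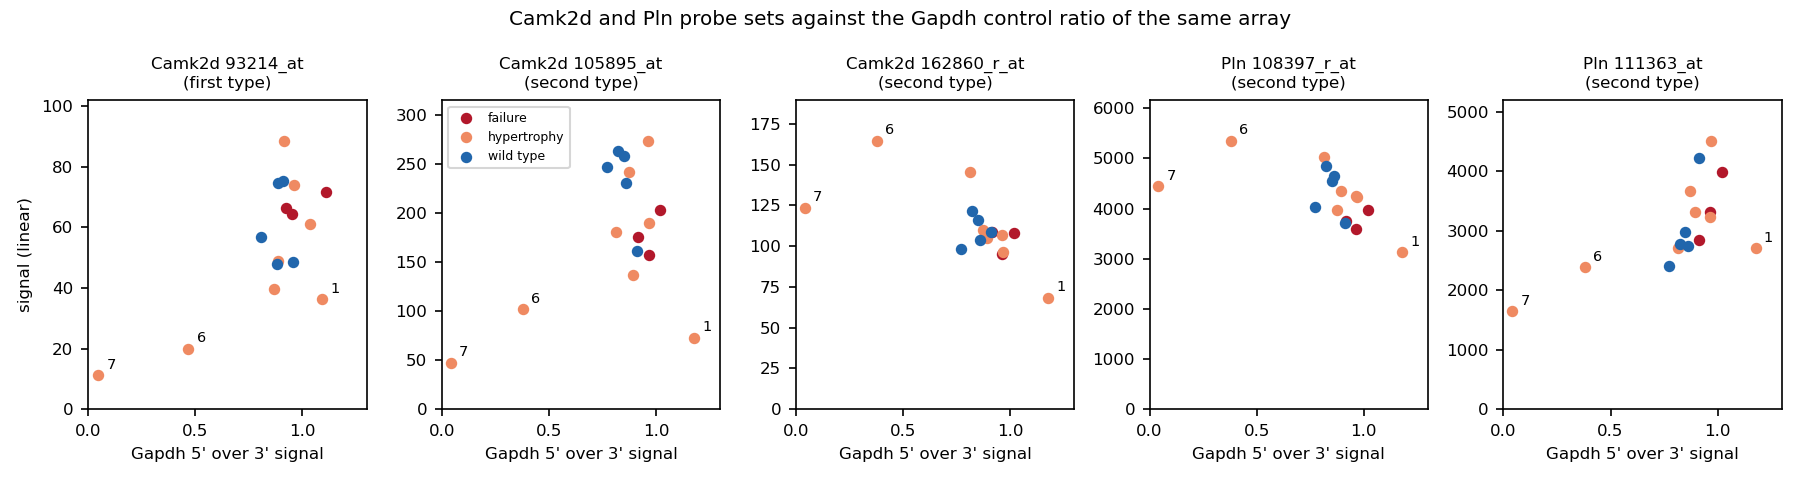
Signal of the Camk2d and Pln probe sets (linear axis) against the 5′ over 3′ signal of the Gapdh control on the same array, coloured by group, with hypertrophy replicates 1, 6 and 7 numbered. Replicates 6 and 7 lie low for Camk2d 93214_at and 105895_at and for Pln 111363_at, and replicate 6 is the highest array for Camk2d 162860_r_at and Pln 108397_r_at.

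The hypertrophy arrays spread more widely than the wild type ones for most members, as they did for most probe sets tested. The SD of the log2 signal was larger in hypertrophy than in wild type for 6 of 7 tested member probe sets of the first type and all 5 of the second, where 81.5% and 75.5% of all probe sets showed the same. On the first type the median SD of the members was 0.26 in failure, 0.26 in hypertrophy and 0.14 in wild type, beside 0.16, 0.26 and 0.17 over all probe sets tested. On the second type it was 0.19, 0.39 and 0.18, beside 0.17, 0.25 and 0.18. Hypertrophy replicate 1 was the lowest of its group in 9 of the 12 tested member probe sets, and in 5 of 12 after each array was divided by its median. It was the highest in 0 of 12 as deposited.

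Other genes of calcium handling were taken from a list of 75, of which 64 were on the arrays with 105 probe sets and 54 had one or more of the 74 probe sets tested. None of the 74 was called in any comparison, against the shares of all probe sets given above. At an unadjusted limma p below 0.05 there were 6 of 74 in failure against wild type, 8 in failure against hypertrophy and 2 in hypertrophy against wild type. The share of all probe sets below it was 10.7% and 12.2%, then 10.1% and 8.67%, then 4.47% and 9.77% (first and second type), in the same order of comparisons. The median log2 difference of the list was 0.05, 0.04 and -0.01 in these comparisons. In failure against wild type the groups did not overlap in 4 of 43 probe sets on the first type and 7 of 31 on the second, against 13.3% and 13.8% of all.

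Among these genes the smallest p in failure against hypertrophy was that of Hrc, which encodes the histidine-rich calcium-binding protein of the reticulum, a partner of SERCA2a and of triadin. Its probe set 92371_at read 1127, 1314 and 1441 in failure, 1373 to 2762 with a median of 2022 in hypertrophy, and 2127, 1756, 1799, 1778 and 1728 in wild type. All 3 failure arrays were below all 5 wild type arrays, and only hypertrophy replicate 1 fell among them. The log2 difference was -0.63 ± 0.17 (SE) from hypertrophy (adjusted p = 0.211) and -0.51 ± 0.19 from wild type (adjusted p = 0.326), neither of them called. With array weights, which give less influence to arrays of large residuals, the adjusted p was 0.0101 and 0.00676. That setting called 2.17% of all probe sets in failure against hypertrophy and 10.2% in failure against wild type.

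Ppp1r1b, which encodes DARPP-32, a phosphatase inhibitor best known from the brain, read 282, 265 and 249.95 in failure (108533_at), 181 to 229.6 with a median of 223 in hypertrophy, and 209.7, 187, 249, 195 and 207 in wild type. The failure arrays lay above all others, by a narrow margin over wild type replicate 3 (log2 difference from wild type 0.35 ± 0.11, SE, adjusted p = 0.178). Tmem38b, a cation channel of the reticulum, read 302, 338 and 283 in failure (160998_at), 247 to 286 with a median of 272 in hypertrophy, and 264, 244, 262, 261 and 268 in wild type (log2 difference from wild type 0.24 ± 0.09, SE, adjusted p = 0.337). Its failure arrays were above all wild type arrays. Calumenin (Calu), a calcium-binding protein of the secretory pathway, differed by 0.47 ± 0.16 (log2, SE) in failure against hypertrophy (101107_at, adjusted p = 0.319).

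Junctophilin 4 (Jph4) belongs to the family that ties the reticulum to the surface membrane. Its probe set 106847_at read 680.5, 624 and 782 in failure, 363 to 593 with a median of 485 in hypertrophy, and 644, 665, 794, 604 and 476 in wild type. The hypertrophy arrays were all below the failure arrays, and wild type replicate 5 was the only wild type array within their range. The log2 difference of 106847_at was 0.48 ± 0.16 (SE) in failure against hypertrophy (adjusted p = 0.411). In hypertrophy against wild type it was -0.34 ± 0.13 (adjusted p = 0.406). Another tested Jph4 probe set on the second type gave 0.03 (adjusted p = 0.956) in failure against hypertrophy. Its difference in hypertrophy against wild type was 0.07 (adjusted p = 0.812), of the opposite sign. In hypertrophy against wild type, probe set 110057_at of the inositol trisphosphate receptor gene Itpr2 differed by 0.26 ± 0.09 (adjusted p = 0.349). The other tested Itpr2 probe sets gave the opposite sign, with -0.05 on the second type and -0.04 and -0.01 on the first. The phosphatase inhibitor gene Ppp1r2 differed by -0.34 ± 0.16 (95681_f_at, adjusted p = 0.960) in the same comparison. None of these genes passed.

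**Figure D5:**
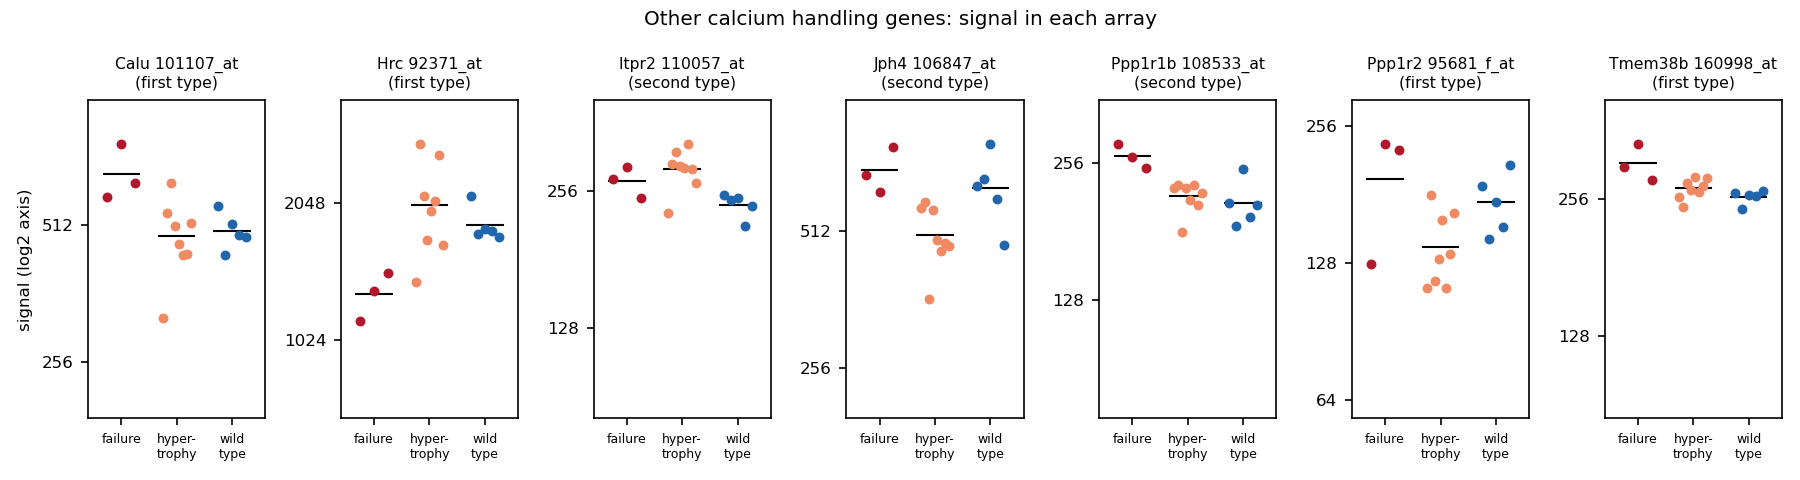
Signal (log2 axis) of the 7 other calcium handling probe sets that had one of the 3 smallest p-values in any of the 3 comparisons, in failure, hypertrophy and wild type arrays, with points for arrays and bars for group means. The 3 Hrc points of failure lie below all wild type points, and the 3 Ppp1r1b points of failure lie above all other points.

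The probe sets most like those of Atp2a2, Pln and Ryr2 were found by Pearson r of log2 signals over the 16 arrays of a type, as a description without a test. For Atp2a2 99570_s_at, among 6120 probe sets with another gene's name, they were those of Gtf3a (94558_g_at, r = 0.849), Mtx1 (161898_i_at, r = 0.836) and Atp6v0a2 (103681_at, r = 0.830). For Ryr2 102653_at they were those of Gga2 (160812_at, r = 0.918), Memo1 (98959_at, r = 0.913) and Adh5 (98625_s_at, r = 0.909). For Pln 108397_r_at, among 5756 on the second type, they were those of Pdlim5 (163704_at, r = 0.874), Slc25a13 (162618_at, r = 0.874) and another member, Camk2d 162860_r_at (r = 0.853). All arrays of a type enter each value, those of low Gapdh ratio or low median signal included. A list was planned for Sln too, but its probe set was not tested. No list was made for the other members.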

How the data were processed

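Each array came with 1 linear intensity per probe set, as the authors deposited it, none below 1. The sources used here do not give their method of summarising and scaling. Across arrays the mean after trimming 2% at either end had a coefficient of variation of 4.82% and 3.31% on the array types, under the limit of 5%, so values were used as deposited. Medians varied by 6.60% and 4.65%. Values under the 20th percentile of a type were raised to it and log2 was taken. Controls and probe sets at or above their array's median in fewer than 3 arrays were left out, so 6980 of 12488 and 7004 of 12477 were tested. Each type was fitted with limma 3.58.1 in R 4.3.3, with all 16 arrays in 1 model and a common variance for the 3 groups. P-values were adjusted by Benjamini-Hochberg per type and comparison and are two-sided.

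Gene names come from GEO's platform annotation. The update through the gene identifiers of GRCm38.p6 changed 0 names on either type. In all, 10855 and 10603 probe sets had 1 gene and 396 and 178 several. Precision is limited by how many arrays there are. No pair of arrays held the same values: the closest pair of a group differed by a SD of 0.23 and 0.29 (log2). The correlations of the 6 pairs used log2 of the deposited signals with no floor. Their p-values came from 100000 permutations, or all orders within hypertrophy. The fit was also run on simulated data, and no result given here rests on that run. Genes named were all members, the calcium handling genes called or, per comparison, with the 3 smallest p-values, and the 3 probe sets most like Atp2a2, Pln and Ryr2. The members, lists and alternatives were chosen with earlier results of these data known. Alternatives covered scaling, floor, filter, variance model, array weights, groups in the fit, the replicate number as a block, each array left out, the arrays of low Gapdh ratio left out, the Actb control ratio as a covariate, and joint adjustment. Figures used matplotlib 3.10.9.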

Additional observations from a re-analysis of the deposited data

Results flagged for a closer look

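Of 32 sets of wild type or hypertrophy arrays of a member probe set, 5 held an array past Dixon's critical value on the log2 scale with values below the floor raised to it. With no floor, a choice made after seeing the data, 2 of the 32 did, where chance flags about 1 set in 20. Both involve no array at the floor. Atp2a2 164693_r_at read 616 in hypertrophy replicate 1, against 1049 to 1387 in the other 7 hypertrophy arrays. Camk2d 105895_at read 161 in wild type replicate 5, against 231 to 263 in the other 4 wild type arrays. The other 3 passed only with the floor, which gives the dim arrays 1 shared value, and did not pass on the deposited signals. Slc8a1 93168_at read 44.7 in hypertrophy replicate 3, against 19.97 to 41.8 in the other 7, with 6 of the 8 arrays below the floor, and 60.6 in wild type replicate 4, against 31.6 to 42.7 in the other 4, with 3 of the 5 below it. Sln 95048_at read 44.2 in hypertrophy replicate 1, against 26.7 to 41.5 in the other 7, of which 6 were below the floor. Groups of 3 failure arrays were not tested.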

How the results depend on the processing

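The count of members called was 0 in each comparison under every alternative run, with a smallest adjusted p of 0.0758 (array weights, failure against wild type). For the other calcium handling genes it was 0 throughout, except with array weights. These called 8 of 74 in failure against wild type (4 higher, 4 lower) and 2 of 74 in failure against hypertrophy. Of all 13984 probe sets they called 1430 (10.2%) and 304 (2.17%), against 35 and 2 without weights. The list was thus called about as often as all probe sets. The cause of the larger counts with weights was not tested. Calls with array weights included Hrc, Calu (0.51, log2, failure against hypertrophy) and Tmem38b (0.30, failure against wild type).

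Signs that turned belong to log2 differences that were not called. In failure against wild type these were Atp2a2 99570_s_at (-0.0061 with quantile and -0.017 with median scaling), Atp2a2 164693_r_at (0.0897 with the Actb ratio), Pln 111363_at (-0.15 with it), Casq2 (0.0918 with it), Camk2d 162860_r_at (0.23 with it) and Ryr2 (-0.058 with median scaling, -0.13 with array weights). In failure against hypertrophy they were Atp2a2 99570_s_at (-0.16 with quantile and -0.057 with median scaling), Atp2a2 164693_r_at (0.062 with the Actb ratio), Pln 111363_at (-0.060 with it), Casq1 (0.0083 with it), Ryr2 (-0.044 with median scaling, -0.16 with array weights) and Camk2d 162860_r_at (0.15 with the Actb ratio, 0.013 without hypertrophy replicates 6 and 7). In hypertrophy against wild type they were Atp2a2 164693_r_at (0.028 with the Actb ratio, 0.038 with array weights), Pln 108397_r_at (0.15 with quantile scaling, 0.021 with the Actb ratio), Pln 111363_at (0.073 with array weights, 0.15 without hypertrophy replicates 6 and 7), Ryr2 (0.0065 with quantile scaling, 0.0645 with the Actb ratio, 0.028 with array weights), Camk2d 162860_r_at (-0.018 with quantile and -0.019 with median scaling, -0.089 without hypertrophy replicates 6 and 7) and Fkbp1b (0.026 with quantile scaling).

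Leaving out 1 array at a time moved 30 of the 36 member differences by over 1.5 times or turned them, none of which was called either way. Where the sign turned it gave, for failure against wild type, -0.16 to 0.18 for Ryr2, -0.047 to 0.37 for Slc8a1 99524_at and -0.13 to 0.061 for Casq2. For failure against hypertrophy it gave -0.15 to 0.19 for Ryr2 and -0.0097 to 0.078 for Atp2a2 99570_s_at. For hypertrophy against wild type it gave -0.13 to 0.15 for Ryr2, -0.084 to 0.10 for Atp2a2 164693_r_at, -0.07 to 0.051 for Pln 108397_r_at, -0.12 to 0.095 for Pln 111363_at, -0.00044 to 0.10 for Calr, -0.051 to 0.13 for Camk2d 162860_r_at and -0.064 to 0.016 for Fkbp1b.

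Deviations of same-numbered arrays correlated between -0.19 and 0.36. On the first and second type, 0 and 0 of 3 arrays correlated best with their own number in failure against wild type. The counts were 1 and 2 of 3 in failure against hypertrophy, and 2 and 0 of 5 in hypertrophy against wild type. With so few pairs this cannot decide whether the replicate numbers pair the samples. With the replicate number as a block 0 members and 0 of the other calcium handling genes were called, 9 of all probe sets in failure against wild type against 35 without it, and the sign turned for Camk2d 162860_r_at (0.050 in failure against hypertrophy, -0.070 in hypertrophy against wild type) and Pln 111363_at (0.062 in hypertrophy against wild type). The r of Ryr2 and Slc8a1 was 0.787 with quantile scaling and 0.787 with median scaling and 0.464 without hypertrophy replicates 1 and 7, alternatives chosen after seeing the data. Array number and dim signal limit what could be seen for Sln, 93168_at and 93214_at.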
